A study of Mus musculus with 9 samples.

Results

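The genes described here are the mouse zinc finger genes whose symbol is Zfp followed by a number alone and that reached at least 1 FPKM in at least 2 of 7 RNA-seq libraries of intestinal organoids. FPKM counts the fragments of a gene scaled for transcript length and for the mapped fragments of the library, so levels can be compared between genes. Of 54838 gene identifiers, 374 carried such a symbol, and 230 of these met the rule. The members were thus chosen by their FPKM in these same libraries, and that they were expressed is not a result. Of the other symbols, 23 were listed at 0 in every library and 121 were above 0 but missed the rule. Among the 230 members, 163 were at 1 FPKM or more in all 7 libraries, 11 met the rule through 4-OHT libraries alone and 12 through EtOH libraries alone. The members just inside the rule were *Zfp60*, *Zfp560* and *Zfp738*, whose second highest values were 1.00, 1.01 and 1.02 FPKM, and the symbols just outside it were *Zfp783*, *Zfp2* and *Zfp61*, at 0.992, 0.990 and 0.988 FPKM.

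The organoids were grown from small intestinal crypts of *Vil-CreERT2*;*Mettl3* fl/fl male mice on a C57BL/6 background, aged 2 to 4 months by the study's methods. In these mice the villin promoter drives, in the intestinal epithelium, a Cre recombinase that 4-hydroxytamoxifen (4-OHT) activates, and every library, controls included, carries both the Cre and the floxed *Mettl3* alleles. Organoids received ethanol (EtOH, the vehicle) or 500 nM 4-OHT for 2 days, and for 5 days DMSO (the vehicle) or necrostatin-1 (Nec-1), an inhibitor of RIPK1, for which both 5 µM and 10 µM are given. There were 2 EtOH DMSO libraries, 2 of EtOH Nec-1, 2 of 4-OHT DMSO and 1 of 4-OHT Nec-1. No group without the Cre received 4-OHT, so the effect of the drug and that of the deletion cannot be told apart. Nothing in the labels says that libraries of a group came from separate cultures, and the p-values below then measure only the spread between these libraries.

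Most proteins of this kind bind DNA through arrays of C2H2 zinc fingers, and many carry a KRAB domain, which recruits the corepressor Trim28 and, through it, the histone methyltransferase Setdb1 and heterochromatin proteins. KRAB zinc finger genes have multiplied by tandem duplication into clusters of near copies, and many of their products silence retroelements. A smaller number of Zfp genes encode quite different proteins, among them mRNA decay factors, ubiquitin ligases, ribosome factors and sequence-specific activators. METTL3, the target of the deletion, is the catalytic subunit of the enzyme that writes N6-methyladenosine on mRNA.

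Each library held between 450207 and 498712 FPKM in all. The spacing of the lowest values put their depths, relative to EtOH DMSO replicate 1, between 0.853 and 1.03. These ratios are rough, since the most frequent ratio held only 30 to 80 of 645 to 1092 low genes per library. *Mettl3* was at 2.70 and 2.71 FPKM in EtOH DMSO, at 2.41 and 2.47 in EtOH Nec-1, and at 3.72 and 4.14 in 4-OHT DMSO, with 3.36 in 4-OHT Nec-1. No library labelled 4-OHT was below an EtOH library. The values cover the whole gene, so every direction between EtOH and 4-OHT below rests on the labels of the libraries. Epithelial markers were at 1 FPKM or more throughout (5 of 5), the 4 fibroblast and 3 endothelial markers stayed under 1 FPKM, and the 5 immune markers summed to between 1.03 and 4.39 FPKM, with none of these at 0 in every library. The secretory markers moved with 4-OHT. The 4 Paneth cell markers summed to between 5261 and 6229 FPKM in the EtOH libraries and between 10693 and 14277 in the 4-OHT libraries, and the 4 stem cell markers to between 25.6 and 40.4 and between 7.63 and 22.4 FPKM. The part of cell composition in the member values below was not tested, and in bulk RNA fewer cells of a type and less RNA per cell cannot be told apart.

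The members were low in abundance. Their mean FPKM over the 7 libraries ran from 0.621 to 32.5 with a median of 2.53, against a median of 5.89 over the 12702 genes tested, and 175 of the 230 (76.1%) were under 5 FPKM. All members together made up between 0.163% and 0.208% of the FPKM sum of a library. *Zfp706*, which encodes a very small zinc finger protein, was the only member with a mean over 20 FPKM. It was at 32.3 and 33.4 FPKM in EtOH DMSO, at 31.0 and 32.1 in EtOH Nec-1, and at 32.0 and 34.1 in 4-OHT DMSO, with 32.6 in 4-OHT Nec-1. Both EtOH Nec-1 libraries were below both EtOH DMSO libraries, and 4-OHT DMSO overlapped each of these groups (log2 fold change 0.01, limma adjusted p = 0.954). The next in order were *Zfp91*, *Zfp36*, *Zfp598*, *Zfp106*, *Zfp445*, *Zfp830* and *Zfp703*, with means of 19.4, 18.6, 17.3, 15.9, 14.6, 13.7 and 13.5 FPKM.

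The first comparison asks how these genes differ between organoids labelled 4-OHT and those labelled EtOH, without inhibitor. In both directions many of them did. With limma on log2(FPKM + 1) and Benjamini-Hochberg adjustment over all 12702 genes tested, 79 of the 230 members passed an adjusted p of 0.05, which is 34.3% where 41.2% of all genes tested passed. Of these, 36 were higher (15.7%, against 24.5% of all genes) and 43 were lower (18.7%, against 16.7%). Among the 8263 genes tested in the same range of mean expression, 37.2% passed, 23.4% higher and 13.8% lower. As shares, the members held fewer rises and more falls than genes of like abundance, which is a description with no test of the list. When each library was centred on its median, a scaling that shifted the median of all genes from 0.077 to -0.080 on the log2 scale, 22 members were higher and 62 lower, against 17.4% and 25.1% of all genes and 16.9% and 21.9% of those in the same range. The median log2 fold change of the members was 0.019, or -0.14 after centring. The first quartile lay at -0.37 and the third at 0.36. Without regard to the test, 91 members were above both EtOH DMSO libraries in both 4-OHT DMSO libraries (39.6%, against 40.7% of all genes) and 80 below (34.8%, against 30.8%). Among the 207 members that met the rule through both the EtOH and the 4-OHT libraries, 30 were higher and 37 lower. The counts depend on single libraries, with 52 called (21 higher and 31 lower) without EtOH DMSO replicate 1, and 51 (27 higher and 24 lower) without EtOH DMSO replicate 2. Without the filter on low values 49 were called.

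**Figure D1:**
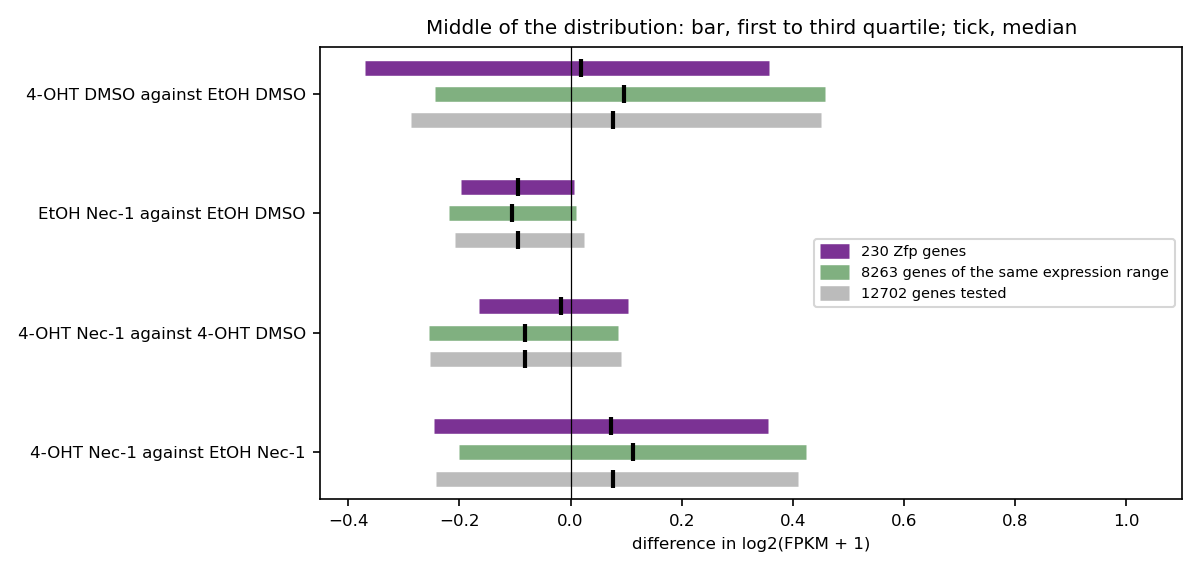
Difference in log2(FPKM + 1), on the horizontal axis, for the 230 members, the 8263 genes of the same expression range and the 12702 genes tested, in 4 comparisons; bars run from the first to the third quartile and black ticks mark medians. For 4-OHT DMSO against EtOH DMSO the members' first quartile (-0.37) lies further down than that of all genes (-0.29), and for EtOH Nec-1 against EtOH DMSO the members and all genes share a median of -0.094.

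The largest fall was in a cluster of 4 genes with related upstream sequences at the distal end of chromosome 2. *Zfp970*, *Zfp972*, *Zfp971* and *Zfp931* lie together between 177464742 and 178078425 on chromosome 2 of GRCm38. All 4 were called lower, and the limits of the call of *Zfp972* are given below. The RefSeq sequences (GRCm38.p6) of the 250 bases upstream of their annotated starts are shown because they show how alike these stretches are. That of *Zfp830*, the rise with the lowest adjusted p, is shown for contrast. Each runs 5′ to 3′ towards the start of the gene, and capitals mark CCAAT or its reverse complement ATTGG.
Zfp970, chr2:177464492-177464741, plus strand: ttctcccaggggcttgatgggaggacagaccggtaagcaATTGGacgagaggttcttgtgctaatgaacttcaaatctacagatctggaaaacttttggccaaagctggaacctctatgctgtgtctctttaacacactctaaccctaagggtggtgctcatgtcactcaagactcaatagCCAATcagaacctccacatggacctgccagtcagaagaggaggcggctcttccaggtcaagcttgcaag
Zfp971, chr2:178023034-178023283, plus strand: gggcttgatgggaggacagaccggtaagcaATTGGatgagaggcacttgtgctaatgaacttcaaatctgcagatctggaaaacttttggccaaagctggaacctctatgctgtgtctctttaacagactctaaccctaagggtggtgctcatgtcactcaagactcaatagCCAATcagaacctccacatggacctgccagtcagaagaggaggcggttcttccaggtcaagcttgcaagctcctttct
Zfp931, chr2:178078426-178078675, minus strand: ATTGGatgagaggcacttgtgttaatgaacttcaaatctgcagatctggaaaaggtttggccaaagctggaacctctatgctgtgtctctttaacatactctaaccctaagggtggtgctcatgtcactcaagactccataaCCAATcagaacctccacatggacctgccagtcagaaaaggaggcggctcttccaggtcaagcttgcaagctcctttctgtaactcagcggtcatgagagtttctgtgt
Zfp972, chr2:177925651-177925900, minus strand: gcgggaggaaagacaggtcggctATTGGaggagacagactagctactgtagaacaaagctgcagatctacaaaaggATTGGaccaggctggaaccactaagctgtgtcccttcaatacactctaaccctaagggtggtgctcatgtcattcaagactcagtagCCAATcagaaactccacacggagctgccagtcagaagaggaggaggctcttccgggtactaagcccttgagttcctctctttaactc
Zfp830, chr11:82764095-82764344, plus strand: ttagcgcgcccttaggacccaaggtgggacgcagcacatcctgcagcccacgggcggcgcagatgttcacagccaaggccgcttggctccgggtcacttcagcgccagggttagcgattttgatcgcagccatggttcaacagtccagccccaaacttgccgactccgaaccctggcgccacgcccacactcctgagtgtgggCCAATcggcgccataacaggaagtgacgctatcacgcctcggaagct
Over the whole windows of 300 bases, 50 of them past the start, *Zfp970* and *Zfp971* shared 94.7% of their bases in a global alignment, *Zfp971* and *Zfp931* 87.3%, and *Zfp970* and *Zfp972* 75.3%. Unrelated windows can also share bases in such an alignment, and *Zfp970* shared 44.7% with *Zfp830*. All 5 windows held CCAAT on the strand shown, and the 4 windows of the cluster also held ATTGG further upstream.

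In the libraries labelled EtOH DMSO *Zfp970* (ENSMUSG00000078866) was at 5.07 and 6.00 FPKM, in EtOH Nec-1 at 4.46 and 5.83, in 4-OHT DMSO at 1.30 and 0.580, with 1.20 in 4-OHT Nec-1. Every 4-OHT library was below every EtOH library. With a log2 fold change of -1.77 and a standard error of 0.22 (limma adjusted p = 0.00301) it had the largest fall of any called member. *Zfp931* (ENSMUSG00000078861) was at 3.74 and 3.23 FPKM in EtOH DMSO, at 3.54 and 3.59 in EtOH Nec-1, and at 0.917 and 1.00 in 4-OHT DMSO, with 1.40 in 4-OHT Nec-1, again with no overlap, and fell by 1.19 (standard error 0.11, limma adjusted p = 0.00135). *Zfp971* (ENSMUSG00000074519) went from 3.06 and 3.01 FPKM to 1.03 and 1.07, with 2.67 and 2.69 in EtOH Nec-1 beside 1.22 in 4-OHT Nec-1 (log2 fold change -0.98, limma adjusted p = 0.00175). *Zfp972* (ENSMUSG00000074529), the least abundant, went from 1.38 and 1.99 FPKM to 0.703 and 0.879 (log2 fold change -0.58, limma adjusted p = 0.0332). Its call was lost without EtOH DMSO replicate 2 or any 1 of the EtOH Nec-1 and 4-OHT DMSO libraries (limma adjusted p from 0.0517 to 0.114), and it met the expression rule through EtOH libraries alone. The call of *Zfp972* thus supports no difference. Of 3 other tested genes inside the cluster, *Gm14325*, *Gm14326* and *Gm14403*, 2 also fell. The likeness given above is of promoter windows, and the transcripts were not compared. Where transcripts are alike too, fragments can be assigned to more than one gene, so the split of the signal between members of the cluster is uncertain.

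The same uncertainty holds for the other clusters. Taking members less than 500 kb from the next as neighbours, 115 of the 228 members with a position lay in 21 clusters of 3 or more, 32 in pairs and 81 alone (*Zfp125* and *Zfp969* had no position). Among the 115 clustered members 17 were higher (14.8%, against 24.5% of all genes) and 28 lower (24.3%, against 16.7%), with a median log2 fold change of -0.12. Among the 81 that stood alone 16 were higher (19.8%) and 8 lower (9.88%), with a median of 0.067, and in pairs 3 were higher (9.38%) and 6 lower (18.8%). With median centring these counts were 10 higher and 39 lower in clusters, and 10 higher and 14 lower alone. Members of a cluster share sequence and position and are not independent, so the split was not tested. The clustered falls include *Zfp972*, *Zfp759*, *Zfp85* and *Zfp273*, which met the expression rule through EtOH libraries alone. The clustered rises include *Zfp456*, *Zfp459* and *Zfp667*, which met it through 4-OHT libraries alone. *Zfp346*, a fall that stood alone, also met it only where it is high. The rule favoured the direction of these calls, and the split was not counted without such members. In 9 clusters the members called were all lower, in 6 all higher, in 3 both were present, and in 3 none was called. In the cluster of *Zfp667* its call was the only one.

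Within the cluster of 15 members on chromosome 17 between 21008941 and 22456689, 6 fell and none of the others passed the test. *Zfp946*, at its distal end, was at 10.4 and 9.28 FPKM in EtOH DMSO, at 8.83 and 8.60 in EtOH Nec-1, and at 4.58 and 3.50 in 4-OHT DMSO, with 4.81 in 4-OHT Nec-1. Both 4-OHT groups were below every EtOH library (log2 fold change -1.11, standard error 0.13, limma adjusted p = 0.00261). *Zfp758* went from 2.66 and 2.62 to 0.564 and 1.16 FPKM (log2 fold change -0.99, limma adjusted p = 0.00879), and *Zfp943*, *Zfp820*, *Zfp760* and *Zfp942* fell by 0.87, 0.84, 0.61 and 0.55. Of these calls *Zfp943* was lost without EtOH DMSO replicate 1 (limma adjusted p = 0.0513), *Zfp942* without EtOH DMSO replicate 2 (0.0523) and *Zfp760* without EtOH DMSO replicate 2 (0.0555) or 4-OHT DMSO replicate 2 (0.0558). Their neighbours *Zfp53* and *Zfp51* did not pass, with log2 fold changes of 0.00 and 0.12. A second chromosome 17 cluster, of 9 members between 32765496 and 33631716, held 4 falls, with *Zfp871* foremost. *Zfp871* (ENSMUSG00000024298) was at 10.9 and 14.1 FPKM in EtOH DMSO, at 10.5 and 11.3 in EtOH Nec-1, and at 5.07 and 4.60 in 4-OHT DMSO, with 5.30 in 4-OHT Nec-1, with no overlap between EtOH and 4-OHT libraries (log2 fold change -1.20, standard error 0.14, limma adjusted p = 0.00242).

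Not every cluster held calls in 1 direction only. The 14 members on chromosome 13 between 67069398 and 67827000 held 5 rises (*Zfp953*, *Zfp456*, *Zfp429*, *Zfp459* and *Zfp65*) and 4 falls (*Zfp759*, *Zfp85*, *Zfp87* and *Zfp273*). *Zfp65* went from 2.69 and 2.54 FPKM to 4.64 and 4.31 (log2 fold change 0.60, limma adjusted p = 0.00785), while *Zfp85* went from 2.29 and 1.64 to 0.891 and 0.942 (log2 fold change -0.62, limma adjusted p = 0.0383). *Zfp85* met the expression rule only through EtOH libraries, where it had to be higher, so this pair does not show opposite directions. With median centring the cluster held 3 rises and 5 falls. Of the 9 calls those of *Zfp65* and *Zfp429* held whichever library was left out, and each of the other 7 was lost without at least 1 of the EtOH DMSO libraries (limma adjusted p up to 0.153, for *Zfp85* without EtOH DMSO replicate 1). Of these 7, *Zfp456* and *Zfp459* met the expression rule through 4-OHT libraries alone, and *Zfp759*, *Zfp85* and *Zfp273* through EtOH libraries alone. The calls of these genes support no difference. Among the falls this leaves *Zfp87*, whose call depended on single libraries. On chromosome 6 between 47835633 and 48621548, 3 of 8 members rose and none fell (1 higher and 1 lower with median centring), and on chromosome 7 between 127233061 and 127885996, 3 of 9 rose and 1 fell (1 and 1 with median centring).

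**Figure D2:**
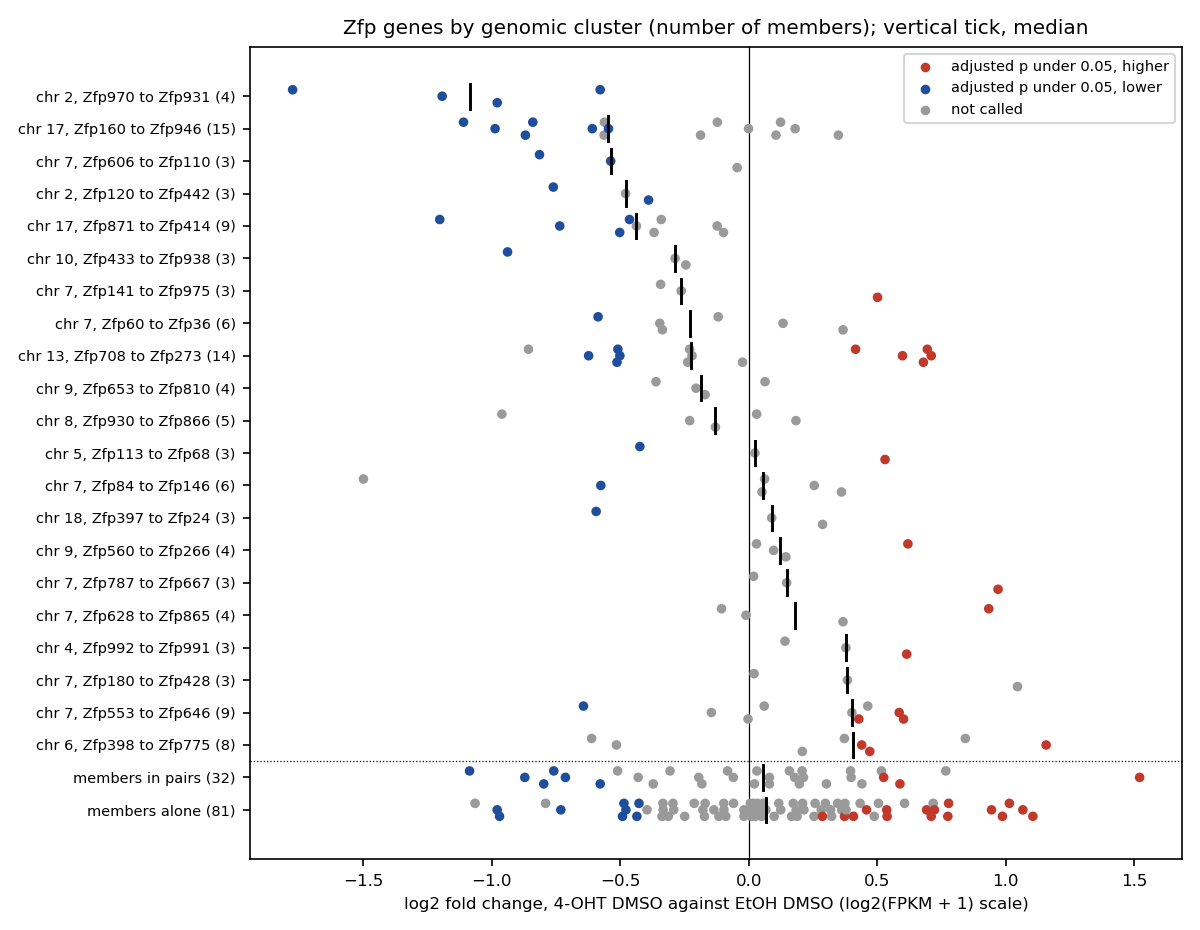
Log2 fold change of each member, 4-OHT DMSO against EtOH DMSO, by genomic cluster (number of members in brackets), with members in pairs and alone at the bottom; points are single genes, coloured by the limma call, and black ticks are medians. The chromosome 2 cluster at the top has 4 of 4 members called lower with a median of -1.09, and the chromosome 6 cluster has a median of 0.41. The chromosome 13 cluster of 14 holds calls on both sides. The calls of *Zfp972* (chromosome 2) and of *Zfp759*, *Zfp85*, *Zfp273*, *Zfp456* and *Zfp459* (chromosome 13) support no difference. Each of these genes met the expression rule only through the arm where it is high.

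Other large falls were outside the chromosome 2 and 17 clusters described above. *Zfp825* was at 10.8 and 9.78 FPKM in EtOH DMSO, at 6.13 and 7.70 in EtOH Nec-1, and at 4.04 and 4.60 in 4-OHT DMSO, with 5.55 in 4-OHT Nec-1. It stepped down from EtOH DMSO to EtOH Nec-1 and again to 4-OHT, with no overlap between EtOH and 4-OHT libraries (log2 fold change -1.09, standard error 0.13, limma adjusted p = 0.00289). *Zfp958* was at 8.78 and 7.99 FPKM in EtOH DMSO and at 4.61 and 3.09 in 4-OHT DMSO (log2 fold change -0.97, limma adjusted p = 0.00794), and *Zfp873*, the only call in a chromosome 10 cluster of 3, went from 2.39 and 2.68 to 0.859 and 0.830 (log2 fold change -0.94, limma adjusted p = 0.00327). *Zfp97* was at 7.52 and 6.88 FPKM in EtOH DMSO and 3.52 and 3.92 in 4-OHT DMSO. It fell by 0.80 (standard error 0.11, limma adjusted p = 0.00371).

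Among the rises, *Zfp830*, which encodes a protein of the pre-mRNA splicing machinery, had the lowest adjusted p of all members. It was at 9.78 and 9.85 FPKM in EtOH DMSO, at 9.45 and 9.32 in EtOH Nec-1, and at 20.2 and 21.5 in 4-OHT DMSO, with 16.1 in 4-OHT Nec-1. The EtOH libraries lay within a narrow band and every 4-OHT library lay above it (log2 fold change 1.01, standard error 0.08, limma adjusted p = 0.00086). *Zfp513*, linked to photoreceptor maintenance, had the largest fold change, but its EtOH DMSO libraries were apart. It was at 4.12 and 8.47 FPKM in EtOH DMSO, at 7.79 and 8.27 in EtOH Nec-1, and at 16.3 and 22.1 in 4-OHT DMSO, with 12.2 in 4-OHT Nec-1. All 4-OHT libraries were above all EtOH libraries (log2 fold change 1.52, standard error 0.31, limma adjusted p = 0.0135).

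*Zfp667*, also known as Mipu1 and named for its rise in ischaemic preconditioning of the heart, was near the floor in every EtOH library. It was at 0.141 and 0.134 FPKM in EtOH DMSO, at 0.173 and 0.198 in EtOH Nec-1, and at 1.22 and 1.24 in 4-OHT DMSO, with 1.70 in 4-OHT Nec-1, and so met the expression rule through 4-OHT libraries alone, where it had to be higher. The log2 fold change of 0.97, given as a description, is on the log2(FPKM + 1) scale, while the ratio of mean FPKM was 8.92. *Zfp710* went from 2.51 and 2.90 FPKM to 6.87 and 7.05 (log2 fold change 1.11, limma adjusted p = 0.00125), *Zfp777* from 5.05 and 2.67 to 9.43 and 9.57 (1.16, limma adjusted p = 0.0141) and *Zfp628* from 2.21 and 2.86 to 5.55 and 5.90 (0.93, limma adjusted p = 0.0035). *Zfp959*, with the highest adjusted p of the 10 largest rises, was at 1.38 and 0.578 FPKM in EtOH DMSO and 2.59 and 2.88 in 4-OHT DMSO. It rose by 0.94 (limma adjusted p = 0.0272) and with median centring no longer passed (limma adjusted p = 0.0578), nor did it without EtOH DMSO replicate 2 or either 4-OHT DMSO library (limma adjusted p from 0.0549 to 0.0860).

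**Figure D3:**
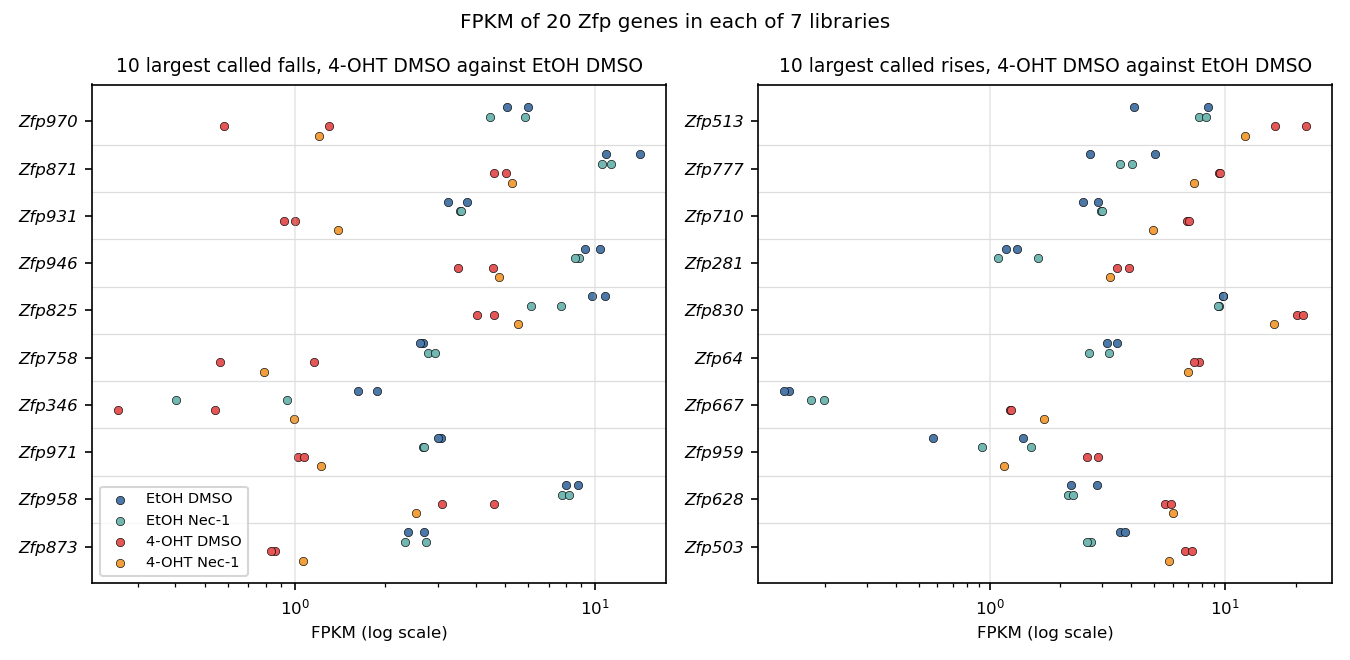
FPKM on a log axis for the 10 members with the largest called falls (left) and rises (right) between 4-OHT DMSO and EtOH DMSO; each point is 1 library, coloured by group. *Zfp970* is at 4.46 FPKM or more in the 4 EtOH libraries and at 1.30 or less in the 3 4-OHT libraries, while the 4-OHT Nec-1 library of *Zfp346* (0.996) and *Zfp959* (1.15) lies among the EtOH libraries.

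By known role, the members that silence retroelements or guard imprints mostly did not pass. Of 6 such genes 1 rose, none fell and 5 did not pass, with a median log2 fold change of -0.070 (1 higher and 1 lower with median centring), where 24.5% of all genes were higher and 16.7% lower. Between the 4-OHT Nec-1 library and EtOH Nec-1 the median difference was 0.38, with 5 of 6 above both EtOH Nec-1 libraries (83.3%, against 50.4% of all genes) and no test. The riser was *Zfp57*, which keeps methylation at imprinted regions in the embryo. It was at 0.344 and 0.341 FPKM in EtOH DMSO, at 0.217 and 0.237 in EtOH Nec-1, and at 1.13 and 1.27 in 4-OHT DMSO, with 0.811 in 4-OHT Nec-1, all of them low values, with the 4-OHT libraries above the EtOH libraries (log2 fold change 0.71). It reached 1 FPKM in the 4-OHT DMSO libraries alone and so met the rule only through the group where it is high, and its call supports no difference. *Zfp445*, its partner in imprint maintenance, was at 13.7 and 16.8 FPKM in EtOH DMSO and 14.8 and 14.2 in 4-OHT DMSO, and the groups overlapped (log2 fold change -0.06, limma adjusted p = 0.714). *Zfp809*, which recruits silencing to integrated retroviruses, was at 7.98 and 7.95 FPKM in EtOH DMSO and 5.37 and 6.65 in 4-OHT DMSO. It did not pass (log2 fold change -0.36, limma adjusted p = 0.0584) but did with median centring (limma adjusted p = 0.0184). *Zfp932* and *Zfp568*, a repressor of a placental *Igf2* transcript, had log2 fold changes of -0.08 and 0.06. *Zfp708* was listed at 0 in 2 libraries, EtOH Nec-1 replicate 2 and 4-OHT DMSO replicate 2, and at 0.667 to 1.48 FPKM in the others, the only member listed at 0 in any library.

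Of 12 members that act on RNA, ribosomes or other proteins 3 rose and 1 fell, with a median log2 fold change of 0.32 (2 higher, 1 lower and a median of 0.17 with median centring). The share higher was 25%, against 24.5% of all genes, and the share lower 8.33%, against 16.7%. Beside *Zfp830*, the rises were in *Zfp622*, a maturation factor of the large ribosomal subunit, and *Zfp91*, a ubiquitin ligase of the non-canonical NF-κB pathway. *Zfp622* was at 6.80 and 6.64 FPKM in EtOH DMSO, at 6.62 and 6.30 in EtOH Nec-1, and at 9.64 and 9.57 in 4-OHT DMSO, with 8.74 in 4-OHT Nec-1, with every 4-OHT library on top (log2 fold change 0.46, standard error 0.08, limma adjusted p = 0.00883). *Zfp91* went from 16.8 and 16.9 FPKM to 23.5 and 21.9 (log2 fold change 0.41, limma adjusted p = 0.0113, and 0.0548 with median centring). The fall was in *Zfp346*, which binds double-stranded RNA. It was at 1.62 and 1.87 FPKM in EtOH DMSO, at 0.944 and 0.402 in EtOH Nec-1, and at 0.541 and 0.258 in 4-OHT DMSO, with 0.996 in 4-OHT Nec-1. EtOH DMSO was on top, 4-OHT Nec-1 came next, and EtOH Nec-1 and 4-OHT DMSO overlapped below it (log2 fold change -0.98 for 4-OHT DMSO against EtOH DMSO). *Zfp346* reached 1 FPKM in the EtOH DMSO libraries alone and so met the rule only through the group where it is high, and its call, which was lost without EtOH DMSO replicate 1 (limma adjusted p = 0.0616) or replicate 2 (0.0791), supports no difference. *Zfp36*, or tristetraprolin, which brings decay enzymes to mRNAs with AU-rich elements, did not pass at 16.9 and 18.1 against 19.3 and 27.0 FPKM (log2 fold change 0.37, limma adjusted p = 0.172). *Zfp598*, the sensor of collided ribosomes, *Zfp207*, a spindle assembly factor, and *Zfp106*, an RNA-binding protein, lay at 0.06, 0.01 and 0.17, and *Zfp593*, *Zfp326*, *Zfp638* and *Zfp451* between 0.21 and 0.72, none of which passed.

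Of 24 listed transcription factors of known action 20 met the rule, and 5 of these rose while 3 fell, with a median log2 fold change of 0.27 (3 higher and 4 lower with median centring). These are 25% and 15%, near the 24.5% and 16.7% of all genes. *Zfp281*, a regulator of pluripotency, was at 1.17 and 1.30 FPKM in EtOH DMSO, at 1.61 and 1.09 in EtOH Nec-1, and at 3.90 and 3.47 in 4-OHT DMSO, with 3.23 in 4-OHT Nec-1. The 4-OHT libraries stood clear of the EtOH libraries (log2 fold change 1.07, standard error 0.15, limma adjusted p = 0.004). Its close relative *Zfp148*, which binds similar GC-rich sites, was at 5.57 and 6.09 FPKM in EtOH DMSO and 2.86 and 6.62 in 4-OHT DMSO, libraries that overlapped (log2 fold change -0.33, limma adjusted p = 0.428). *Zfp64*, an activator of the MLL gene in leukaemia, went from 3.16 and 3.47 FPKM to 7.74 and 7.35 (log2 fold change 0.99, limma adjusted p = 0.00224).

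*Zfp503* and *Zfp703* encode the mouse members of the NET family of corepressors. *Zfp503* was at 3.58 and 3.75 FPKM in EtOH DMSO, at 2.70 and 2.59 in EtOH Nec-1, and at 6.75 and 7.25 in 4-OHT DMSO, with 5.80 in 4-OHT Nec-1, so that EtOH Nec-1 was lowest and 4-OHT highest (log2 fold change 0.78 for 4-OHT DMSO against EtOH DMSO, standard error 0.09, limma adjusted p = 0.00263). *Zfp703* did not pass there (0.26, limma adjusted p = 0.592). The other rises were *Zfp687* (0.69, limma adjusted p = 0.0342) and *Zfp217* (0.29, limma adjusted p = 0.0442), both lost with median centring (limma adjusted p = 0.0535 and 0.226). *Zfp217* was also lost without any 1 of the EtOH and 4-OHT DMSO libraries or of the EtOH Nec-1 libraries (limma adjusted p from 0.0585 to 0.130), and *Zfp687* without any 1 of these except EtOH DMSO replicate 2 (0.0521 to 0.103). *Zfp143*, an activator that binds many promoters and small nuclear RNA genes, fell from 5.47 and 7.89 FPKM to 3.71 and 3.43 (log2 fold change -0.73, standard error 0.17, limma adjusted p = 0.0212, and 0.0634 without 4-OHT DMSO replicate 2). *Zfp652* fell by 0.49 and *Zfp292* by 0.43 (limma adjusted p = 0.0119 and 0.0165), the latter lost without EtOH DMSO replicate 2 (0.0524) or 4-OHT DMSO replicate 2 (0.0531). The remaining 12 members of the list, among them *Zfp410*, the activator of *Chd4*, and *Zfp335*, did not pass.

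**Figure D4:**
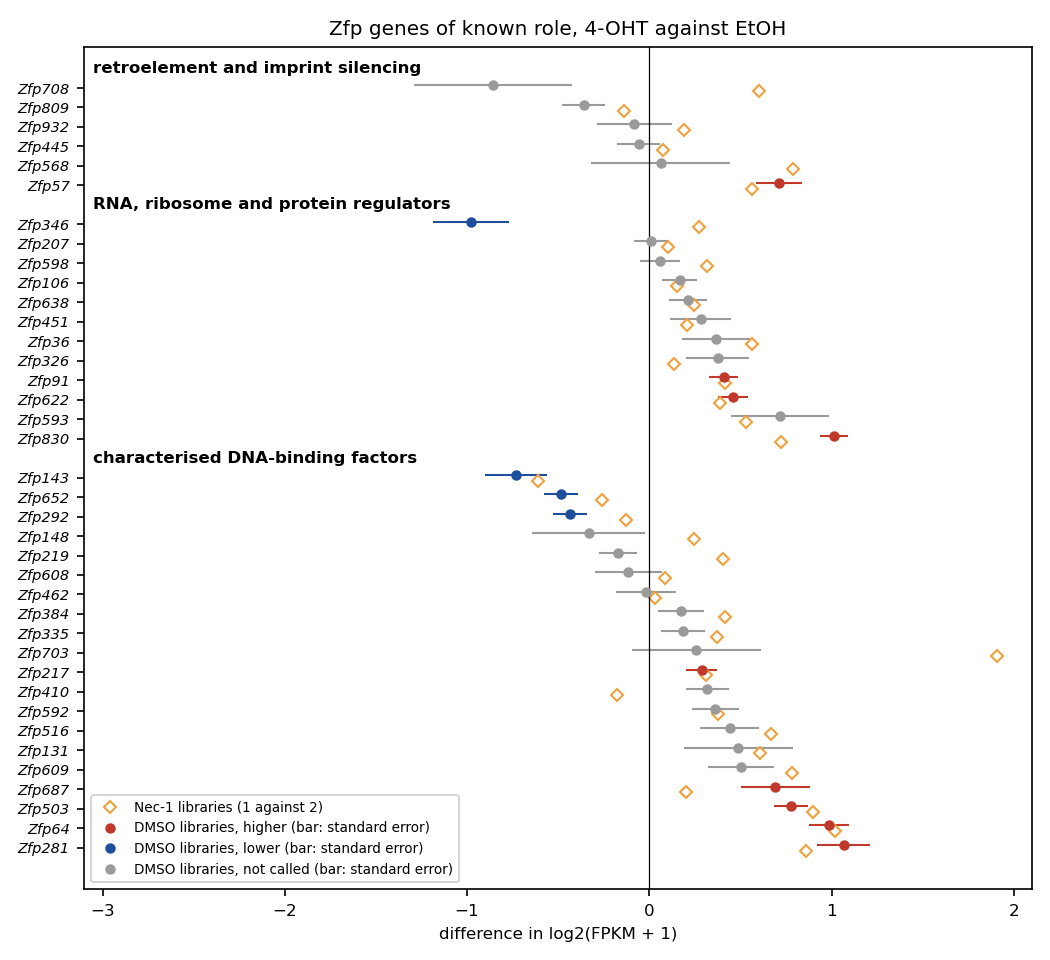
Members of 3 role lists with the difference in log2(FPKM + 1) on the horizontal axis; filled points are 4-OHT DMSO minus EtOH DMSO with limma standard errors, coloured by call, and open diamonds are the single 4-OHT Nec-1 library minus the mean of EtOH Nec-1. *Zfp346* is at -0.98 without Nec-1 and 0.27 with it, and *Zfp703* at 0.26 and 1.91, while *Zfp64* is at 0.99 and 1.02.

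The corepressor genes that KRAB proteins rely on split in the same comparison, with 3 of 16 higher and 3 lower (2 and 5 with median centring), or 18.8% each way against 24.5% and 16.7% of all genes. *Trim28*, the KRAB corepressor itself, went from 30.4 and 30.7 FPKM to 24.3 and 22.7 (log2 fold change -0.37, limma adjusted p = 0.0222, and 0.0686 to 0.0721 without either EtOH DMSO library or 4-OHT DMSO replicate 2), and *Setdb1*, which it recruits, from 5.43 and 6.62 to 12.0 and 10.1 (log2 fold change 0.78, limma adjusted p = 0.00718). Of 6 measured genes listed for the HUSH silencing complex and its partners 2 rose (33.3%) and 1 fell (16.7%). The rises were *Daxx* and *Morc2a* and the fall was *Atrx*, while *Mphosph8*, *Pphln1* and *Resf1* did not pass. Of 14 mRNA decay genes 3 rose (21.4%) and 1 fell (7.14%) (3 and 3 with median centring).

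Some features of the promoters went along with the calls. RefSeq promoter windows of 300 bases matched 192 of the 230 members and 8784 of the genes tested by symbol. All 36 risen members had a window, but only 34 of 43 fallen and 122 of 151 not called. The median GC content was 52.3% for these fallen members, 59.7% for the risen, 54.3% for those not called and 61.0% for genes tested. After the values were seen, 15 short motifs were searched on both strands. CCAAT was in the windows of 24 of 34 fallen members (70.6%), 15 of 36 risen (41.7%), 56 of 122 not called (45.9%), 39.1% of genes tested and 37.9% of all 27025 promoters. GGGCGG was in 11 of 34 fallen members (32.4%), 19 of 36 risen (52.8%), 65.3% of genes tested and 35.9% of all promoters. These were not the only motifs that differed. CCGGAAG was in 32.4% of fallen members, 16.7% of risen and 19.9% of genes tested, and CACGTG in 20.6%, 8.33% and 10.6%. ACTTCCG went the other way, at 14.7%, 25% and 14.7%. Fallen members outside clusters of 3 or more held CCAAT in 8 of 9 windows (88.9%) and those inside in 16 of 25 (64%). For GGGCGG these were 5 of 9 (55.6%) and 6 of 25 (24%), and the median GC content was 58.7% and 50.3%. In GC content and GGGCGG the fallen members outside clusters were thus near the risen members, and the low values were those of the clustered copies. The windows of a cluster are related copies, as those of *Zfp970* and *Zfp971* printed above show. Across these sets GGGCGG was mostly more frequent where GC content was higher, and CCAAT showed no such order. Fallen members had more CCAAT and a lower GC content than risen ones. Yet those outside clusters had more CCAAT and a higher GC content than those inside. A match is a string of letters and not a bound site. The part of GC content or of any motif in the calls was not tested.

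The second comparison asks what Nec-1 did in organoids labelled EtOH. None of the 230 members passed (0, against 0.22% of all genes tested, with limma and Benjamini-Hochberg adjustment), and the lowest adjusted p was 0.132. At an unadjusted limma p under 0.05 there were 15 members (6.52%, against 13.3% of all genes). The median log2 fold change was -0.094 for members and for all genes alike. Of the members 81 were below both EtOH DMSO libraries (35.2%, against 39.1% of all genes) and 21 above both (9.13%, against 10.5%). *Zfp703* had the largest difference. It was at 13.6 and 16.9 FPKM in EtOH DMSO, at 2.63 and 5.80 in EtOH Nec-1, and at 23.1 and 14.5 in 4-OHT DMSO, with 17.6 in 4-OHT Nec-1, so that only the EtOH Nec-1 libraries were low. That is a log2 fold change of -1.70 with a standard error of 0.35, which did not pass (limma adjusted p = 0.198). *Zfp219* was at 6.16 and 6.46 FPKM without and 3.35 and 3.88 with Nec-1 (log2 fold change -0.67, standard error 0.11, limma adjusted p = 0.132). For *Zfp503* the log2 fold change was -0.36 (limma adjusted p = 0.256) and for *Zfp825* -0.52 (limma adjusted p = 0.255).

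The third comparison sets the single library labelled 4-OHT Nec-1 beside the 2 labelled 4-OHT DMSO. It has no replicate check and no test. Of the members 95 lay below both DMSO libraries (41.3%, against 49.3% of all genes tested) and 60 above both (26.1%, against 25.5%), with a median difference of -0.018 in log2(FPKM + 1), against -0.081 for all genes. With median centring 56 were below (24.3%, against 31.8%) and 111 above (48.3%, against 42.3%). By either scaling fewer members than genes in general lay below. Among members outside both DMSO libraries, the largest differences upward were in *Zfp260* (1.08), *Zfp708* (0.81), *Zfp568* (0.71), *Zfp148* (0.57) and *Zfp346* (0.52), and the largest downward in *Zfp46* (-1.05), *Zfp959* (-0.80), *Zfp740* (-0.73), *Zfp513* (-0.60) and *Zfp467* (-0.55).

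Several of these genes also differed between replicates. *Zfp260* was at 2.35 and 5.86 FPKM in EtOH DMSO, at 7.24 and 0.836 in EtOH Nec-1, and at 0.789 and 0.608 in 4-OHT DMSO, with 2.59 in 4-OHT Nec-1, so that 1 EtOH Nec-1 library held the highest value and the other lay near the 4-OHT DMSO libraries. *Zfp46* was at 1.34 and 0.163 FPKM in EtOH DMSO, at 1.09 and 1.41 in EtOH Nec-1, and at 1.49 and 1.53 in 4-OHT DMSO, with 0.215 in 4-OHT Nec-1. Here 1 EtOH DMSO library and the 4-OHT Nec-1 library were low and the other libraries alike. Replicates differed by 2-fold or more in at least 1 group for 33 of the 230 members (14.3%), against 13.7% of the genes in the same expression range, and for 7 of the 79 called members.

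The last comparison asks whether the difference between 4-OHT and EtOH looks the same under Nec-1. It sets the 4-OHT Nec-1 library against the 2 EtOH Nec-1 libraries and shares no library with the comparison without Nec-1. The median difference of the members was 0.073 in log2(FPKM + 1), against 0.076 for all genes. Of the members 116 lay above both EtOH Nec-1 libraries (50.4%, against 50.4% of all genes) and 88 below both (38.3%, against 38%), and with median centring 85 (37%, against 39%) and 112 (48.7%, against 49.4%). Across members the differences with and without Nec-1 had a Pearson's r of 0.75 over 230 genes (0.76 over all 12702), a description over genes that share their libraries and are not independent. Of the 43 members lower without Nec-1, 42 lay below both EtOH Nec-1 libraries in the 4-OHT Nec-1 library (97.7%, where 93.4% of all genes lower without Nec-1 did), with a median difference of -0.45 against -0.64 without Nec-1. *Zfp346* was the exception. Of the 36 higher, 33 lay above both (91.7%, where 95.1% of all such genes did), with a median of 0.54 against 0.62. Both counts hold members that met the expression rule through EtOH or 4-OHT libraries alone. The rule also used the Nec-1 libraries, so it favoured the same direction in both comparisons for these members. Without them 37 members were lower and 30 higher without Nec-1, and their direction under Nec-1 was not counted apart.

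The largest differences under Nec-1 were *Zfp422* (-1.75), *Zfp970* (-1.47), *Zfp958* (-1.35), *Zfp97* (-1.12) and *Zfp758* (-1.11) downward, and *Zfp703* (1.91), *Zfp667* (1.19), *Zfp628* (1.13), *Zfp64* (1.02) and *Zfp503* (0.90) upward. All but *Zfp422* and *Zfp703* were also called without Nec-1, in the same direction. *Zfp667* met the expression rule through 4-OHT libraries alone, where it had to be higher, so it supports no difference in either comparison. *Zfp422* was at 9.12 and 1.35 FPKM in EtOH DMSO, at 8.55 and 8.08 in EtOH Nec-1, and at 1.80 and 1.84 in 4-OHT DMSO, with 1.76 in 4-OHT Nec-1, with 1 EtOH DMSO library at the level of the 4-OHT libraries. *Zfp703* owed its place to the low EtOH Nec-1 libraries given above. For the Nec-1 differences in EtOH and in 4-OHT organoids, which also share no library, the members' r was -0.16, against 0.29 over all genes.

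**Figure D5:**
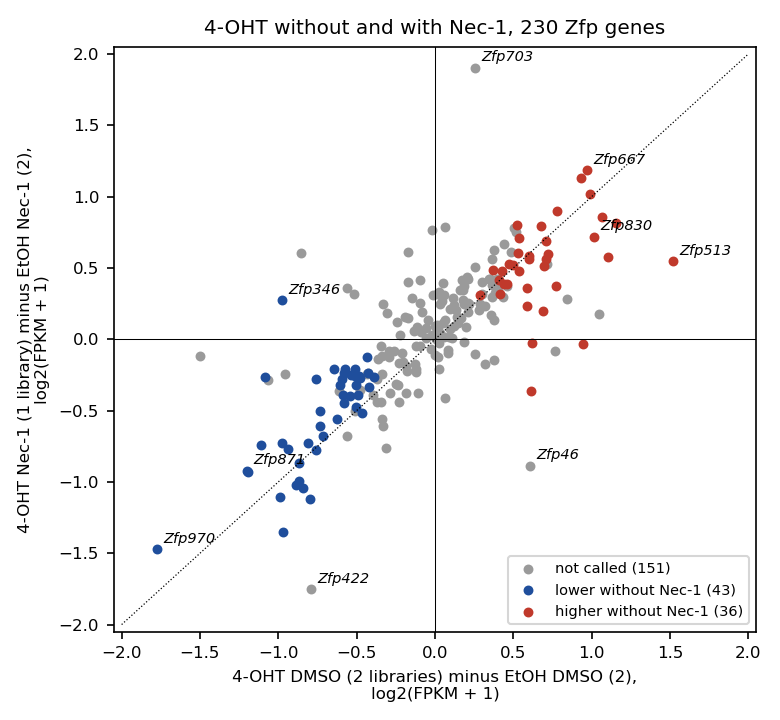
Each point is 1 of the 230 members; the horizontal axis is 4-OHT DMSO minus EtOH DMSO (2 libraries each) and the vertical axis 4-OHT Nec-1 (1 library) minus EtOH Nec-1 (2 libraries), both in log2(FPKM + 1), with the dotted line at equality. The 43 members called lower (blue) lie below 0 on both axes except *Zfp346*, and *Zfp703* and *Zfp422* stand apart at 1.91 and -1.75 on the vertical axis.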

How the data were processed

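RNA of 7 organoid libraries in 4 groups was sequenced. Per the submitters' processing notes the tools were HISAT2 2.1.0 and StringTie 1.3.3b with the mm10 build, and the authors deposited FPKM, 1 value per Ensembl gene and library. No column was left unmapped (0). Fragment counts and depth behind single values are unknown. The 2 ChIP samples were not analysed here. Groups follow the labels.

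Because the deposited FPKM are not counts, limma 3.58.1 in R 4.3.3 was used with a mean-variance trend on log2(FPKM + 1). It took in 12702 genes, those that reached 1 FPKM in 2 or more libraries. Adding 1 makes the fold changes of low genes smaller than the ratio of their values. The fit held all 7 libraries and a mean for each group (3 residual degrees of freedom), with Benjamini-Hochberg adjustment over all genes tested and a threshold of 0.05. The code was tested on simulated data. Comparisons with the single 4-OHT Nec-1 library have no test. Tables came from Python 3.11.15 with pandas 2.3.3, numpy 2.4.6 and scipy 1.17.1, and plots from matplotlib 3.10.9. Symbols, positions and promoter windows are those of RefSeq GRCm38.p6. Protein domains were not analysed here.

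The members and lists were chosen with earlier results of these data known. Named are the 10 largest called rises and falls whose groups do not overlap, the 5 largest differences in each direction in each comparison with the 4-OHT Nec-1 library among members outside both libraries of the other group, the 8 most abundant members, those next to the expression rule and the members of the role lists. Other genes given as examples (members of the clusters, *Zfp97*, *Zfp825* and *Zfp503* under Nec-1 among them) were chosen after their values were seen. Alternatives were median centring, upper quartile scaling, no filter, 1 FPKM in every library, pseudocounts of 0.1 and 0.25, no variance trend, only the 4 libraries of a comparison, an added log2 fold threshold of 0.5, the replicate number as a block, and each library left out in turn.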

Additional observations from a re-analysis of the deposited data

Results flagged for a closer look

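For some members every library of one arm moved opposite to the other arm in the same contrast. Each such pair rests on the single 4-OHT Nec-1 library, and the difference between the 2 effects was not tested. The effects are differences in log2(FPKM + 1).

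For Nec-1 against DMSO, *Zfp346* was at -0.73 in EtOH organoids and 0.52 in 4-OHT organoids, and *Zfp825* at -0.52 and 0.30. *Zfp946* was at -0.15 and 0.21, *Zfp971* at -0.13 and 0.12, *Zfp652* at -0.11 and 0.12, and *Zfp809* at -0.081 and 0.14. The opposite order was seen in *Zfp710*, at 0.11 in EtOH and -0.42 in 4-OHT organoids, and in *Zfp410*, at 0.14 and -0.35. *Zfp946*, *Zfp825*, *Zfp346*, *Zfp971* and *Zfp652* were called lower with 4-OHT and *Zfp710* higher. In these 6 the 4-OHT Nec-1 value thus lay on the EtOH side of the 4-OHT DMSO libraries. The call and the Nec-1 difference use the same 4-OHT DMSO libraries, so picking genes by both favours this order. It is given as a description, and the call of *Zfp346* supports no difference, as said above.

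For 4-OHT against EtOH, *Zfp346* was at -0.98 without Nec-1 and 0.27 with it, and *Zfp219* at -0.17 and 0.40. *Zfp410* was at 0.32 and -0.17 and *Zfp46* at 0.61 and -0.89. *Zfp708* was at -0.86 and 0.60, where 2 of its 7 libraries are listed at 0.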

How the results depend on the processing

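No member named in the report changed direction among its called values under any alternative (0 reversed). Of the 43 named members called between 4-OHT DMSO and EtOH DMSO, 23 stayed called in every refit they entered. Of these 17 entered all 16 refits and 6, under 1 FPKM in some library, entered 15. The refit that these 6 missed was that with 1 FPKM in every library. Among the 6 are *Zfp57* and *Zfp667*, which met the expression rule through 4-OHT libraries alone, so their calls support no difference. The added fold threshold was applied to counts only, and 2 of the 23, *Zfp622* and *Zfp652*, lie under it. The other 20 were *Zfp143*, *Zfp217*, *Zfp273*, *Zfp292*, *Zfp346*, *Zfp456*, *Zfp459*, *Zfp513*, *Zfp687*, *Zfp759*, *Zfp760*, *Zfp777*, *Zfp85*, *Zfp87*, *Zfp91*, *Zfp942*, *Zfp943*, *Zfp953*, *Zfp959* and *Zfp972*. Of these *Zfp513* and *Zfp777* were lost without the filter alone (limma adjusted p = 0.0612 and 0.0597). Median centring gave 22 members higher and 62 lower, and no filter gave 49 called, 20 of them higher. Leaving out each library in turn gave 51 to 79 called, 21 to 36 higher and 24 to 43 lower. Without EtOH DMSO replicate 1 there were 21 higher, and without EtOH DMSO replicate 2 there were 51 called and 24 lower. The cause was not tested, though a group then has 1 library.

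For Nec-1 in EtOH organoids the count called was 0 to 1 in all and 0 to 1 higher. The 1 call was *Zfp422* without EtOH DMSO replicate 1 (log2 fold change 1.99, limma adjusted p = 0.0462). The median member difference for 4-OHT DMSO against EtOH DMSO was -0.14 with median centring and -0.10 with upper quartile scaling, and -0.0021 to 0.051 over libraries left out. For Nec-1 in EtOH organoids it was 0.0046 and -0.020, and -0.13 to -0.050 over libraries left out. For 4-OHT Nec-1 against 4-OHT DMSO it was 0.096 and 0.070, and -0.063 to -0.018. Against EtOH Nec-1 it was -0.069 and -0.028, and 0.061 to 0.084. In the 4-OHT Nec-1 library 56 members lay below both 4-OHT DMSO libraries with median centring and 60 with upper quartile scaling. Above both lay 111 and 105, and 90 to 105 lay above the DMSO library kept when the other was left out.

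Same-numbered libraries did not deviate together (correlations of -0.040, 0.0065 and -0.012). Such values cannot tell whether same-numbered libraries came from 1 culture or batch. With the replicate number as a block 68 members were called, 30 higher and 38 lower, and 0 for Nec-1. Without the members that met the expression rule in 1 arm alone, a choice made after the data were seen, 30 were higher and 37 lower. With 2 libraries a group and no fragment counts, small differences in members near 1 FPKM could not be resolved.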

Other observations

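In the same limma fit with Benjamini-Hochberg adjustment, most calls among the Klf and Zbtb zinc finger genes between 4-OHT DMSO and EtOH DMSO were rises, and those in other families went both ways. The examples were chosen after their values were seen. Of 11 Krüppel-like factor genes measured, which regulate epithelial growth and differentiation, 7 were higher and none lower (5 higher and none lower with median centring), where 24.5% of all genes tested were higher. *Klf6* went from 22.8 and 26.4 FPKM in EtOH DMSO to 80.3 and 82.9 in 4-OHT DMSO, and was at 57.6 in 4-OHT Nec-1 beside 23.0 and 21.6 in EtOH Nec-1. The 4-OHT libraries were all above the EtOH libraries (log2 fold change 1.69, standard error 0.10). *Klf2* was near the floor in EtOH DMSO, at 0.228 and 0.153 FPKM, and at 1.11 and 2.00 in 4-OHT DMSO. It reached 1 FPKM in 4-OHT libraries alone, the arm where it is high, so its call supports no difference. Its call was lost without EtOH DMSO replicate 2 (limma adjusted p = 0.0540).

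Of 30 Zbtb genes, whose proteins join a BTB domain to zinc fingers, 12 were higher (40%) and 1, *Zbtb5*, was lower (3.33%). With median centring these counts were 10 and 2. Of all genes tested 24.5% were higher and 16.7% lower, or 17.4% and 25.1% with median centring. *Zbtb5* reached 1 FPKM in EtOH libraries alone, the arm where it is high, so its call supports no difference. The call of *Zbtb5* was lost without EtOH DMSO replicate 2, 4-OHT DMSO replicate 2 or either EtOH Nec-1 library (limma adjusted p from 0.0518 to 0.0621). *Zbtb9* went from 4.23 and 4.53 FPKM to 9.99 and 8.03, and *Zbtb6* from 5.67 and 5.97 to 10.7 and 10.1. *Zbtb10* was at 0.101 and 0.159 FPKM in EtOH DMSO and 1.36 and 1.02 in 4-OHT DMSO. It reached 1 FPKM in the 4-OHT DMSO libraries alone, and *Zbtb25*, also called higher, in 4-OHT libraries alone. Each met the filter only through libraries where it is high, so these calls support no difference. Of 14 Zkscan and Zscan genes 4 were higher (28.6%) and 2 lower (14.3%), near the shares of all genes (2 and 2 with median centring). Of 18 Zfp genes with a letter after the number, *Zfp36l1* and *Zfp36l2* among them, 1, *Zfp518b*, was higher (5.56%). Lower were 2, *Zfp280c* and *Zfp36l2* (11.1%), and with median centring 1 was higher and 4 lower. *Zfp518b* reached 1 FPKM in the 4-OHT DMSO libraries alone, and *Zkscan7*, called lower, in EtOH libraries alone. These calls support no difference either. Whether these families differ from the numbered Zfp genes was not tested.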
